A study of Mus musculus with 33 samples.

Results

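Cirbp and Rbm3 encode the cold-inducible RNA-binding proteins, and the RNA of these 2 genes was followed through every library of a study of nicotinamide riboside (NR) in the blood-forming cells of old mice. The members were the 2 gene symbols Cirbp and Rbm3 among the 55376 symbols counted in each library. They were chosen by the measured level of Cirbp, which was higher with NR in hematopoietic stem cells (HSCs) and in granulocyte–monocyte progenitors (GMPs), so the NR differences of both genes in those cells are given as values and were not tested. NR is a precursor from which cells make NAD+, and it was given at 12 mM in the drinking water for 4 to 6 weeks to male C57BL/6 mice of 24 to 29 months. All groups analysed here were old mice, so the libraries hold no comparison with youth.

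The second of the study's cohorts held HSCs, common lymphoid progenitors (CLPs) and GMPs of untreated mice (O-WT) and of treated mice (O-NR), with 4 libraries per group and 24 in all. Cohort 1 held HSCs only, from 2 O-WT libraries, 4 O-NR libraries and 3 libraries of mice that had received NR and then spent 2 months without it (O-NR-RC). The titles name the myeloid cells as GMPs, while a label field names them common myeloid progenitors. Total RNA, which keeps unspliced and non-polyadenylated transcripts, was sequenced from sorted cells. Between 4792380 and 23816042 reads were counted on genes per library (median 11998451). Whether each library came from a single mouse is not stated, so the tests measure the spread between libraries. Each sorted population held its own markers: the summed level of 7 HSC markers lay between 1277 and 1662 CPM (counts scaled to a common library size) in the 8 HSC libraries of cohort 2 and between 30.4 and 109 CPM in the CLP and GMP libraries. The CLP markers summed to at least 2163 CPM in CLPs and at most 49.0 CPM in HSCs and GMPs of cohort 2, and the GMP markers to at least 16944 CPM in GMPs and at most 606 CPM in HSCs and CLPs of that cohort. In the 9 HSC libraries of cohort 1 the HSC markers summed to 636 to 1766 CPM.

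Both proteins carry a single RNA recognition motif followed by a glycine-rich tail, and both become more abundant when mammalian cells are cooled slightly below body temperature. They bind other RNAs and change their splicing, stability and translation. CIRBP is known to bind the mRNA of the circadian clock factor CLOCK, and RBM3 is known in neurons for its part in synapse repair after cooling. CIRBP that is released from cells also acts as an inflammatory signal. Splicing is known to take part in this response, since an Rbm3 variant with a poison exon is degraded at warmer temperatures.

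In mm10 with the Gencode M21 annotation, Cirbp lies on the plus strand of chromosome 10 from 80165985 to 80172786. Its annotation holds 7 transcripts, of which 2 are protein-coding, 4 have a retained intron and 1 is a target of nonsense-mediated decay. Rbm3 lies on the minus strand of chromosome X from 8138975 to 8145880. It has 11 annotated transcripts, of which 6 are protein-coding, 2 are decay targets, 2 have a retained intron and 1 is of another class. The deposited counts add all transcripts of a gene, so coding and non-coding forms cannot be told apart in any value below. The antisense gene Rbm3os overlaps Rbm3 by 452 bases and held 18 to 111 counts per library, and the pseudogene Rbm3-ps on chromosome 1 held 2 to 27 counts. Rbm3 itself held 470 to 3903 counts. The strand setting of the counting is not given in the sources used here, so a small part of the Rbm3 counts could belong to the antisense gene.

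The start region of Cirbp is shown because it holds the letters of the mild cold-responsive element, the motif through which the transcription factor Sp1 is known to act on this gene in cooled cells. The 250 bases before a RefSeq start of Cirbp (GRCm38.p6, plus strand, chr10:80167589-80167838) read as follows, with matches to the cold-responsive letters and to GGGCGG, the letters of an Sp1 box, in capitals.
Cirbp: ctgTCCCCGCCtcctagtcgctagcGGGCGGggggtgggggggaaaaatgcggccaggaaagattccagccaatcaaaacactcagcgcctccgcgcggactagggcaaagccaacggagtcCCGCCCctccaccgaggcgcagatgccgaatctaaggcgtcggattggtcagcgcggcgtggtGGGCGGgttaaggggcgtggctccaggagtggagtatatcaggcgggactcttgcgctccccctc
TCCCCGCC was found once, on the plus strand, from 247 to 240 bases before the start. GGGCGG was found at 225 to 220 and at 65 to 60 bases before the start on the plus strand, and at 128 to 123 bases on the minus strand. Both strands were searched, and the matches do not overlap each other. Of 32851 windows of the same length before RefSeq starts, 4.64% held TCCCCGCC and 32.7% held GGGCGG. The letters CCAAT were found at 2 places, and 33.8% of windows held them. CACGTG (in 6.02% of windows), TGACGTCA (1.55%) and GAANNTTC (6.69%), which are the letters of a clock E-box, a cAMP response element and part of a heat shock element, were not among these 250 bases. A match is a description of the letters and not of binding. RefSeq has 2 windows for Cirbp, and the other, from 80167921 on, held GGGCGG 4 times and not TCCCCGCC.

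In HSCs of cohort 2, Cirbp RNA was higher after NR and Rbm3 RNA was not. Levels are CPM scaled with edgeR's TMM factors within each cell type. The O-WT HSC libraries held 53.2, 26.4, 31.5 and 32.5 CPM of Cirbp in replicates 1 to 4. The O-NR HSC libraries held 52.6, 49.7, 70.4 and 53.9 CPM. O-WT replicate 1 stood as high as the treated libraries, and the other O-WT libraries lay below all of them. The means were 35.9 ± 11.8 CPM in O-WT and 56.7 ± 9.33 CPM in O-NR (SD, n = 4 each), a log2 fold change of 0.66 (SE 0.18). When only library totals were used for scaling, each O-NR library lay above each O-WT library, by a narrow margin (50.4 against 49.1 CPM for the nearest pair). Without O-WT replicate 1 the log2 fold change was 0.94. On the TMM scale, 1.44% of genes had all O-NR libraries above all O-WT libraries. The share of genes on the scale of library totals was not computed.

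For Rbm3, the same O-WT HSC libraries held 133, 83.1, 84.8 and 85.8 CPM and the O-NR libraries 110, 76.8, 98.4 and 86.3 CPM. O-WT replicate 1 was again the highest and the groups overlapped throughout. The means were 96.8 ± 24.5 and 93.0 ± 14.6 CPM, a log2 fold change of -0.06 (SE 0.16), and it was 0.17 without O-WT replicate 1 and 0.02 without O-NR replicate 2. Across all 17307 genes of this comparison, 0.734% had an unadjusted p below 0.01, the threshold the study used (0.376% on the higher side), 3.85% had one below 0.05, and the median log2 fold change was -0.02. These shares describe the comparison from which Cirbp was picked, so nothing is read from Cirbp's place among them.

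Markers of B and plasma cells moved with this comparison. The summed level of 8 such markers lay between 171 and 693 CPM in O-WT HSCs and between 73.0 and 116 CPM in O-NR HSCs, with no overlap. In 6 of the 8 the mean was lower with NR, and none was at 0 in a whole group. The largest difference was in Ighm, the immunoglobulin M heavy chain (means of 161 and 5.40 CPM). Xbp1 had means of 125 and 57.5 CPM. Cd79b was near level (9.56 and 9.44 CPM), and Mzb1 and Cd79a were slightly higher with NR. O-WT replicate 4 held the highest sum, and its Cirbp level was close to that of O-WT replicates 2 and 3. All 7 red cell markers were higher on average with NR in these HSCs. Their sums were low and overlapped, at 6.04 to 12.5 CPM in O-WT and 5.81 to 20.4 CPM in O-NR. The sums of the HSC, CLP, GMP and neutrophil markers overlapped too. The part of any of these markers in the Cirbp difference was not tested.

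GMPs of cohort 2 held less Cirbp than HSCs, and the treated libraries were again higher. The O-WT GMP libraries held 15.5, 12.7, 13.8 and 10.6 CPM, and the O-NR GMP libraries 20.1, 15.6, 25.6 and 19.96 CPM. Each O-NR library lay above each O-WT library, with 15.6 against 15.5 CPM for the nearest pair, as was so for 1.18% of genes. The means were 13.1 ± 2.03 and 20.3 ± 4.08 CPM (SD, n = 4 each), a log2 fold change of 0.62 (SE 0.15). Behind these levels were 128 to 323 counts of Cirbp per library.

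Rbm3 was the more abundant transcript in GMPs. Its levels were 223, 229, 205 and 151 CPM in O-WT and 177, 182, 179 and 199 CPM in O-NR. The treated libraries lay within the range of the untreated ones. The means were 202 ± 35.6 and 184 ± 9.79 CPM, a log2 fold change of -0.13 (SE 0.11). It was -0.24 (SE 0.07) without O-WT replicate 4, the lowest O-WT library, and -0.06 without O-WT replicate 2, the highest. In this comparison 0.99% of 13437 genes had a p below 0.01 (0.238% on the higher side) and 4.87% one below 0.05. The marker sums of the 6 lists checked, for HSCs, CLPs, GMPs, B and plasma cells, red cells and neutrophils, overlapped between O-WT and O-NR GMPs.

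**Figure D1:**
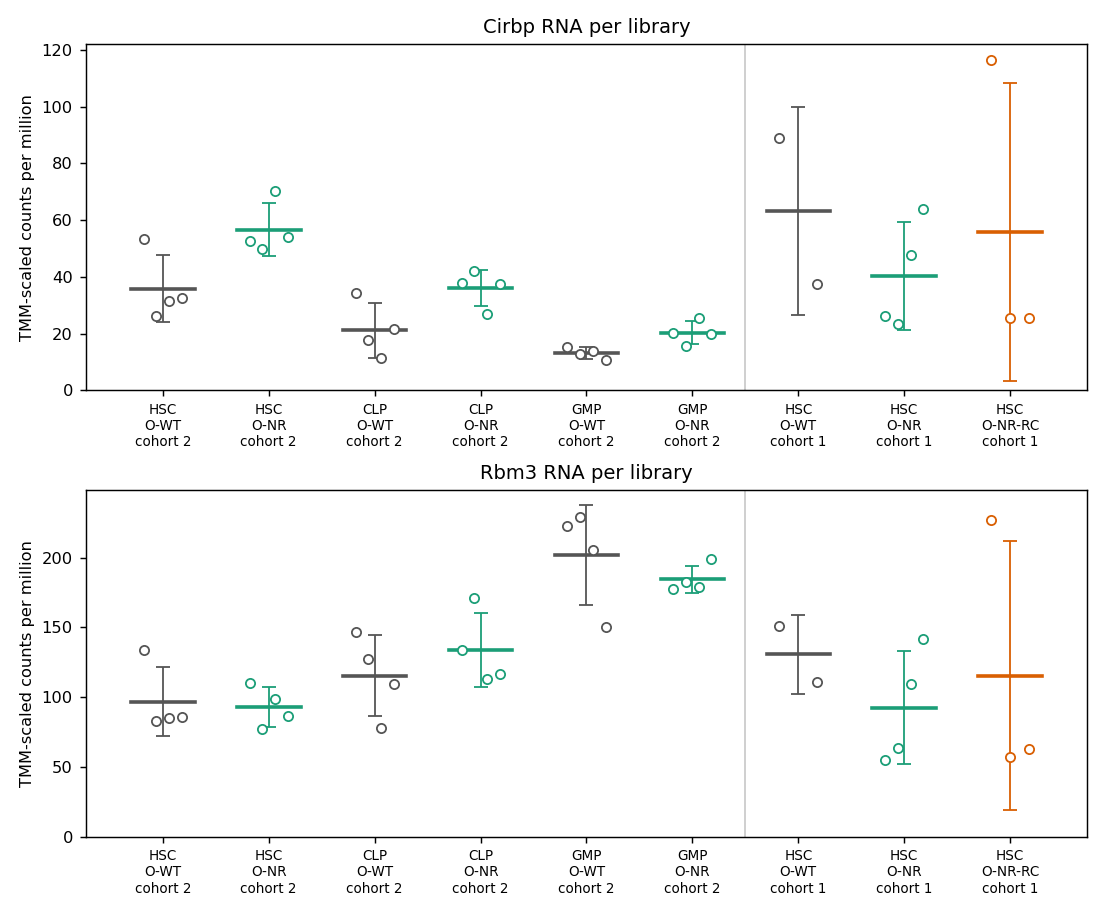
TMM-scaled CPM of Cirbp (upper panel) and Rbm3 (lower panel) in each library of the 9 groups. Open points are libraries, thick lines group means and bars 1 SD. Scaling was done within each cell type of cohort 2 and within cohort 1, so heights in different cell types are not on 1 scale. The O-NR points of Cirbp sit above most O-WT points in HSCs, CLPs and GMPs of cohort 2. For Rbm3 the O-NR and O-WT points overlap in each cell type, with a higher O-NR mean in CLPs (134 against 115 CPM). In cohort 1 both genes spread widely within groups.

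CLPs were not among the cells for which Cirbp was picked, so their NR difference was tested. The O-WT CLP libraries held 34.4, 17.8, 11.3 and 21.5 CPM of Cirbp, and the O-NR CLP libraries 37.9, 42.0, 27.0 and 37.7 CPM. O-WT replicate 1 lay above O-NR replicate 3, and the other O-WT libraries lay below every treated library. The means were 21.3 ± 9.71 and 36.1 ± 6.38 CPM (SD, n = 4 each), with 68 to 428 counts per library. The log2 fold change was 0.76 (SE 0.24), with an unadjusted p of 0.00261 and a Benjamini-Hochberg adjusted p of 0.999 from edgeR's quasi-likelihood test over 20186 genes. It passed the study's threshold of 0.01, as 0.431% of the genes did (0.159% on the higher side), and it did not pass correction. No gene of this comparison had an adjusted p below 0.05, with edgeR or with DESeq2, while 649 genes (3.22%) had an unadjusted p below 0.05 with edgeR. The p was above 0.01 without O-WT replicate 2 or O-WT replicate 3, and reached 0.0115.

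The CLP result is not an independent repeat of the other cells. The O-WT and O-NR libraries of the 3 cell types carry the same replicate numbers, and they may come from the same mice. Whether the difference between treated and untreated cells is larger in CLPs than in HSCs or GMPs was not tested. The sums of all 6 marker lists overlapped between O-WT and O-NR CLPs, and the neutrophil markers, all 7 of them lower on average with NR, summed to 51.3 to 207 CPM in O-WT and 16.6 to 162 CPM in O-NR. All 7 HSC markers were also lower on average with NR, with sums of 68.4 to 109 CPM in O-WT and 59.4 to 72.4 CPM in O-NR. Their part in the result was not tested.

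Rbm3 in CLPs was 146, 128, 78.1 and 109 CPM in O-WT and 134, 171, 113 and 116 CPM in O-NR. The groups overlapped. O-WT replicate 3 stood lowest for both genes, and it had the highest receptor sum of cohort 2, a measure described below (8303 CPM). The means were 115 ± 29.1 and 134 ± 26.5 CPM, a log2 fold change of 0.21 (SE 0.21) with an unadjusted p of 0.319 from edgeR's quasi-likelihood test. It was 0.07 without O-WT replicate 3, 0.08 without O-NR replicate 2 and 0.37 without O-WT replicate 1.

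Cohort 1 gave no repeat of the higher Cirbp level in treated HSCs. The 2 O-WT libraries held 89.0 and 37.3 CPM of Cirbp. The 4 O-NR libraries held 26.1, 23.4, 47.5 and 63.9 CPM, and the 3 O-NR-RC libraries 116, 25.6 and 25.6 CPM. The 3 groups overlapped, and each spread widely. The O-NR mean was lower than the O-WT mean (40.2 ± 19.1 against 63.2 ± 36.6 CPM), with a log2 fold change of -0.65 (SE 0.62) and an unadjusted p of 0.312 from edgeR's quasi-likelihood test. Without O-WT replicate 1 the log2 fold change was 0.11, so its direction rests on that library.

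After withdrawal of NR the mean was 55.9 ± 52.4 CPM. Compared with O-NR, the log2 fold change of Cirbp was 0.47 (SE 0.55, unadjusted p of 0.409), and compared with O-WT it was -0.18 (SE 0.66, unadjusted p of 0.795), both from edgeR fits of the 9 libraries, in which the genes kept were set for each comparison. Without O-NR-RC replicate 1 the difference from O-NR was -0.66. The direction against O-WT turned positive without O-WT replicate 1 (0.59), O-NR-RC replicate 2 (0.16) or O-NR-RC replicate 3 (0.16). These 3 comparisons share libraries and are not independent of each other.

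Rbm3 followed the same libraries in cohort 1. Its levels were 151 and 111 CPM in O-WT, 55.1, 63.6, 110 and 141 CPM in O-NR and 227, 56.7 and 62.6 CPM in O-NR-RC. The libraries that were high for Cirbp were high for Rbm3. The log2 fold changes were -0.50 (SE 0.58) for O-NR against O-WT, 0.32 (SE 0.51) for O-NR-RC against O-NR and -0.18 (SE 0.62) for O-NR-RC against O-WT, with unadjusted p of 0.403, 0.547 and 0.777 from edgeR's quasi-likelihood test. Without O-NR-RC replicate 1 the Rbm3 difference of O-NR-RC from O-NR was -0.64. Without O-WT replicate 1, O-NR-RC replicate 2 or O-NR-RC replicate 3, the one from O-WT was 0.07, 0.14 or 0.11. Over all genes of the 3 comparisons, 0.0358%, 0.027% and 0.0554% had an unadjusted p below 0.01. None had an adjusted p below 0.05 with edgeR, while DESeq2 called 0, 3 and 0 genes, and 122, 63 and 182 genes (0.397%, 0.213% and 0.593%) had an unadjusted p below 0.05 with edgeR.

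The cohort 1 libraries also differed in their counts on genes of the sense of smell. The summed CPM of 1971 olfactory and vomeronasal receptor genes, unscaled by TMM, ranged from 4445 to 15260 in cohort 1 and from 858 to 8303 in cohort 2. In O-NR replicates 1 and 2 and O-NR-RC replicates 2 and 3 it was between 14277 and 15260, and these were the 4 libraries with the lowest Cirbp (23.4 to 26.1 CPM) and the lowest Rbm3 (55.1 to 63.6 CPM). O-NR-RC replicate 1 had the lowest sum of the cohort and the highest level of both genes. Marker sums moved with these libraries too. The HSC markers summed to 636 to 729 CPM in the 4 libraries with the high receptor sums and to 1151 to 1766 CPM in the other 5. The 7 red cell markers summed to 121 CPM in O-NR-RC replicate 1 and 71.6 CPM in O-WT replicate 1, the 2 libraries with the most Cirbp, and to 22.3 to 26.5 CPM in the others. The neutrophil markers summed to 64.1 to 108 CPM in the O-NR-RC libraries and to 37.8 to 61.2 CPM in the O-WT and O-NR libraries, with no overlap. None of the markers was at 0 in a whole group, and their part in the cohort 1 values was not tested. Within groups, over all 33 libraries, the log2 level of Cirbp on the TMM scale followed the log2 receptor sum with a Pearson r of -0.89. That of Rbm3 did so with an r of -0.93. These points share library depth and scaling, and 20.5% of all genes had an r below -0.8 on that scale. The relation is thus not particular to these 2 genes. With libraries scaled on genes over 20 CPM in all libraries, the r was weaker, at -0.63 for Cirbp and -0.72 for Rbm3.

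With the receptor sum as a covariate, an alternative chosen after seeing the data, the log2 fold change of Cirbp for O-NR against O-WT in cohort 1 was -0.37 (SE 0.14, unadjusted p of 0.0154, adjusted p of 0.736 with edgeR). That of Rbm3 was -0.30 (SE 0.10, unadjusted p of 0.00639, adjusted p of 0.7 with edgeR). With the same covariate in cohort 2, Cirbp was at 0.59 (SE 0.11) in HSCs, 0.63 (SE 0.17) in GMPs and 0.66 (SE 0.18) in CLPs, and Rbm3 at -0.13, -0.01 and 0.10. Cirbp thus stayed on the lower side in treated HSCs of cohort 1 and on the higher side in those of cohort 2. The latter direction is the one for which it was picked. Whether the cohorts differ was not tested.

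**Figure D2:**
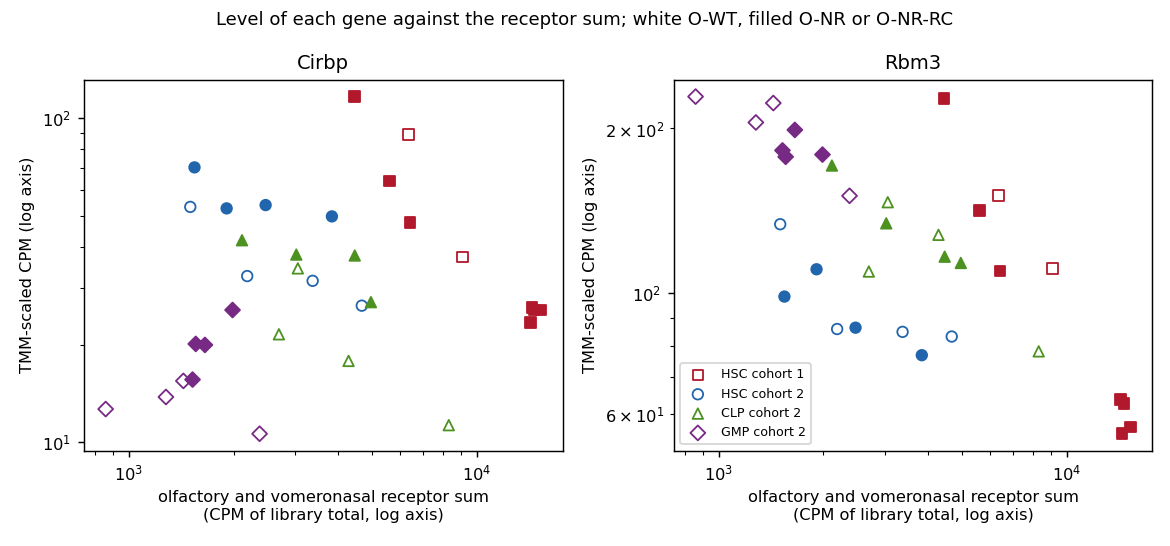
TMM-scaled CPM of Cirbp (left) and Rbm3 (right) against the summed CPM of the olfactory and vomeronasal receptor genes, both axes logarithmic, 1 point per library. White points are O-WT and filled points O-NR or O-NR-RC. The 4 cohort 1 libraries at the right, with sums of 14277 to 15260 CPM, hold the lowest levels of both genes in that cohort.

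Cirbp and Rbm3 differed between HSCs and GMPs in opposite directions. Cirbp was higher in HSCs than in GMPs, and Rbm3 was higher in GMPs than in HSCs or CLPs. These differences come from fits of 12 libraries per treatment, in which the 3 cell types share 1 scaling. The rule for picking the genes did not compare cell types. It did use the Cirbp levels of the same HSC and GMP libraries, so the tests of Cirbp are not free of that choice.

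In O-WT, Cirbp was higher in HSCs than in GMPs by 1.20 on the log2 scale (SE 0.26) with an adjusted p of 0.000255 from edgeR's quasi-likelihood test. Each HSC library lay above each GMP library, as for 21.5% of genes. In the same comparison 45.8% of 18830 genes had an adjusted p below 0.05 and the median log2 difference of all genes was 0.30, and 11.5% of genes had a larger difference than Cirbp. When libraries were scaled on genes over 20 CPM, which was chosen after seeing the data, that median was 0.69 and the Cirbp difference 1.52, so the difference of Cirbp relative to the median gene changed little, and Rbm3 was then at -0.98. HSCs also held more Cirbp than CLPs, by 0.84 (SE 0.26, adjusted p of 0.0126), in a comparison where 30.7% of genes were called. That call was lost with the receptor sum as a covariate (0.42, adjusted p of 0.106) and without HSC O-WT replicate 1 (0.57, adjusted p of 0.0848). CLPs and GMPs did not differ beyond their spread (0.36, SE 0.26, adjusted p of 0.225), where 61% of genes were called, and this value ranged from -0.04 without a CPM filter to 1.33 with the receptor sum as a covariate. It was also near 0 (-0.01) without CLP O-WT replicate 1. The receptor sums of CLPs and GMPs did not overlap, so the covariate cannot be told apart from cell type in this comparison.

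In O-NR, the order of Cirbp was the same and each neighbouring pair passed the test. The log2 differences were 1.18 between HSCs and GMPs (SE 0.17, adjusted p of 2.15e-06), 0.68 between HSCs and CLPs (SE 0.17, adjusted p of 0.00225) and 0.49 between CLPs and GMPs (SE 0.18, adjusted p of 0.0233). The last of these was called in 12 of 19 alternatives, and was lost without CLP O-NR replicate 2 (0.41), GMP O-NR replicate 1 (0.48) or GMP O-NR replicate 2 (0.36). The shares of genes called were 47.1%, 41.8% and 50% in these comparisons. The others kept their calls under every alternative run. Whether the cell type differences themselves changed with NR was not tested.

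Rbm3 was lower in HSCs than in GMPs in O-WT by -1.32 on the log2 scale (SE 0.23, adjusted p of 1.77e-05), a 0.401-fold level, and lower in CLPs than in GMPs by -1.15 (SE 0.23, adjusted p of 0.000188). No library of HSCs or CLPs reached any GMP library, as for 22% of genes in HSCs and 25.6% in CLPs against GMPs. HSCs and CLPs did not differ beyond their spread (-0.17, SE 0.23, adjusted p of 0.582). In O-NR the differences were -1.30 for HSCs against GMPs (SE 0.16, adjusted p of 9.23e-08), -0.81 for CLPs against GMPs (SE 0.16, adjusted p of 0.00016) and -0.49 for HSCs against CLPs (SE 0.16, adjusted p of 0.0144). The last was called in 13 of 19 alternatives, and was lost without HSC O-NR replicate 4 (-0.43) or CLP O-NR replicate 2 (-0.31). With the receptor sum as a covariate, the difference between CLPs and GMPs no longer passed the test in O-WT (-0.34, adjusted p of 0.215) or in O-NR (-0.31, adjusted p of 0.0674). However, every CLP library had a higher receptor sum than every GMP library of its treatment. The sums were at least 2700 CPM against at most 2376 CPM in O-WT, and 2115 against 1987 CPM in O-NR. The covariate and the cell type thus cannot be told apart in this comparison. In bulk samples a lower level per cell and fewer cells with the transcript cannot be told apart.

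**Figure D3:**
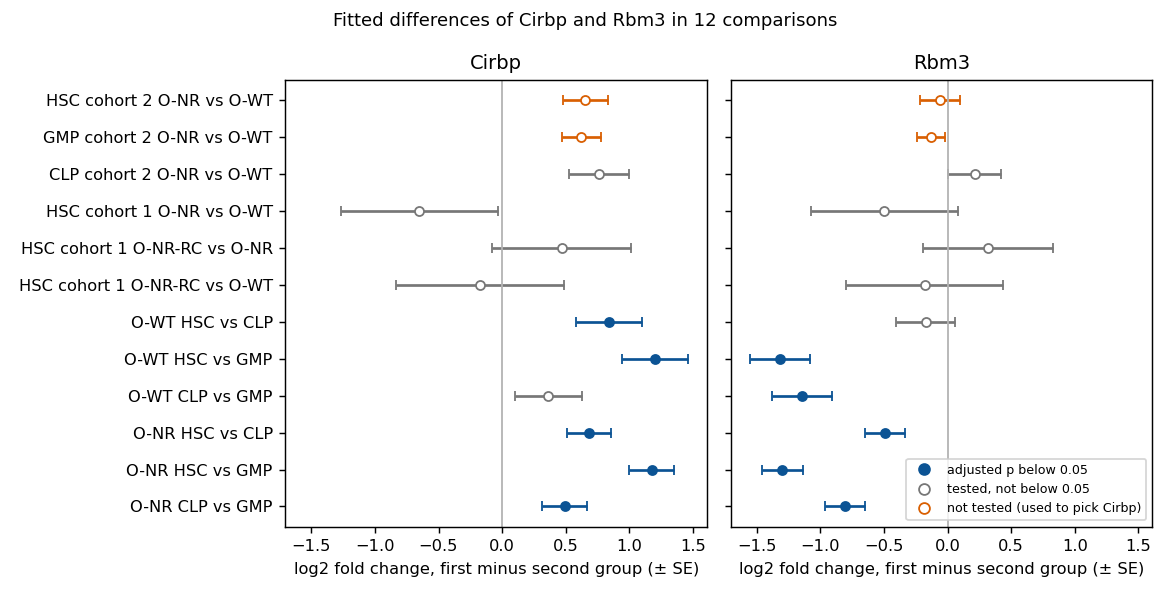
Fitted log2 fold change, first minus second group, of Cirbp (left) and Rbm3 (right) in the 12 comparisons, with bars of 1 SE. Filled points had an adjusted p below 0.05, open grey points were tested and did not, and open orange points are the contrasts for which Cirbp was picked and were not tested. In the comparisons of HSCs with GMPs, Cirbp lies to the right of 0 and Rbm3 to the left.

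Because levels of different genes can be compared only per length, CPM were divided by the kilobases of merged exon, 2604 bases for Cirbp and 4698 for Rbm3. In O-WT HSCs of cohort 2 the level per kilobase was 13.8 ± 4.54 for Cirbp and 20.6 ± 5.22 for Rbm3 (SD, n = 4). In O-NR HSCs it was 21.8 ± 3.58 for Cirbp and 19.8 ± 3.11 for Rbm3. In GMPs it was 5.04 ± 0.78 for Cirbp and 42.9 ± 7.58 for Rbm3 in O-WT, and 7.80 ± 1.57 and 39.3 ± 2.08 in O-NR. In CLPs it was 8.16 ± 3.73 and 24.6 ± 6.20 in O-WT, and 13.9 ± 2.45 and 28.5 ± 5.64 in O-NR. Per length, the 2 transcripts were closest to each other in HSCs and farthest apart in GMPs, where Rbm3 was the higher. The merged exons cover all annotated transcripts, those with a retained intron included. The order of the 2 genes in a cell type can depend on that choice of length.

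The count of Cirbp relative to that of Rbm3 in the same library does not depend on how libraries are scaled. This ratio was chosen after seeing the counts, and in HSCs and GMPs it uses the Cirbp level for which the genes were picked, so it restates that choice and is given without a test. In HSCs of cohort 2, O-WT libraries held 39.8, 31.7, 37.1 and 37.9 Cirbp counts per 100 Rbm3 counts, and O-NR libraries 47.7, 64.7, 71.6 and 62.5. All O-NR libraries lay above all O-WT libraries, O-WT replicate 1 included. The means were 36.7 ± 3.47 and 61.6 ± 10.1 (SD, n = 4).

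In the other cells of cohort 2 the O-NR libraries also lay above the O-WT libraries. How many other genes would separate by their ratio to Rbm3 was not computed. In CLPs the ratio was 23.5, 14.0, 14.5 and 19.7 in O-WT and 28.3, 24.5, 23.9 and 32.4 in O-NR, with means of 17.9 ± 4.53 and 27.3 ± 3.91. In GMPs it was 6.94, 5.53, 6.72 and 7.06 in O-WT and 11.3, 8.56, 14.3 and 10.04 in O-NR, with means of 6.57 ± 0.70 and 11.1 ± 2.43. Within O-WT, replicate 2 had the lowest ratio in each of the 3 cell types.

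In cohort 1 the ratio did not separate the groups. It was 59.1 and 33.7 in O-WT, 47.3, 36.8, 43.4 and 45.2 in O-NR, and 51.3, 45.2 and 40.8 in O-NR-RC. The group means were 46.4 ± 17.9 (n = 2), 43.2 ± 4.54 (n = 4) and 45.7 ± 5.25 (n = 3). The 4 libraries with the high receptor sums, which had the lowest CPM of both genes in the cohort, had ratios of 36.8 to 47.3, within the range of the rest. The 4 O-NR HSC libraries of cohort 1 lay below the lowest O-NR HSC library of cohort 2, a difference that was not tested.

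**Figure D4:**
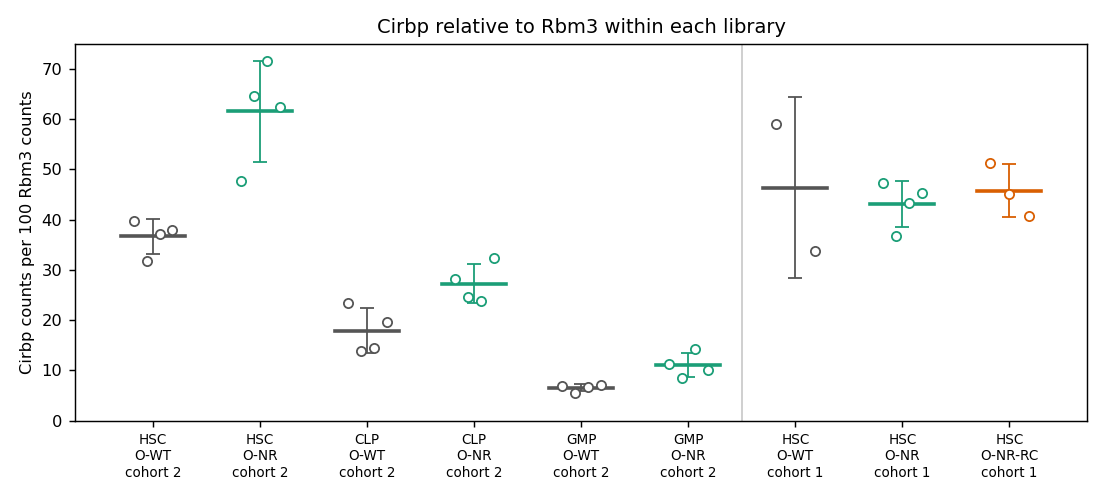
Cirbp counts per 100 Rbm3 counts in each library, with group means (thick lines) and 1 SD (bars). In HSCs, CLPs and GMPs of cohort 2 every O-NR point lies above every O-WT point of the same cell type, while the 3 groups of cohort 1 overlap.

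Genes of the heat shock response, which respond to warming and protein damage, mostly had lower values with NR in cohort 2. Of 20 listed genes 17 could be tested in each cell type. In HSCs 16 of the 17 had a negative log2 fold change, with a median of -0.28 beside -0.02 for all genes, and 4 had an unadjusted p below 0.01, all lower with NR, where 0.358% of all genes did. In GMPs all 17 were negative, with a median of -0.165 beside -0.00188 for all genes, and 5 had a p below 0.01 on the lower side, where 0.752% of all genes did. In CLPs 13 of 17 were negative, with a median of -0.13, and 1 had a p below 0.01, where 0.272% of all genes did so on the lower side. No list gene had an adjusted p below 0.05 with edgeR, while DESeq2 called Dnaja1 and Hspa8 in GMPs. The list was written with earlier results of these data known and is described, not tested.

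Hsph1, a co-chaperone of the HSP70 machine and a target of heat shock factor 1, had the list's lowest log2 fold change in each of the 3 cell types. In HSCs it was 62.3, 118, 91.6 and 162 CPM in O-WT and 64.5, 58.8, 45.2 and 65.5 CPM in O-NR, a log2 fold change of -0.90 (SE 0.22, unadjusted p of 0.000763, adjusted p of 0.825 with edgeR). In GMPs it was 107, 194, 121 and 204 CPM in O-WT and 98.9, 87.3, 72.1 and 108 CPM in O-NR, a log2 fold change of -0.77 (SE 0.18). O-WT replicate 1 was the only untreated library to overlap the treated ones in these 2 cell types. In CLPs it was 87.5, 197, 114 and 219 CPM in O-WT and 61.1, 89.2, 61.9 and 88.8 CPM in O-NR, a log2 fold change of -1.04 (SE 0.24, unadjusted p of 9.47e-05, adjusted p of 0.956 with edgeR). O-WT replicate 1 was thus the lowest O-WT library for Hsph1 and the highest for Cirbp in each of the 3 cell types.

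Dnaja1 and Hspa8, a J-domain partner of HSP70 and the constitutive HSP70 chaperone, had no overlap between groups in HSCs or GMPs. All O-NR libraries lay below all O-WT libraries for 1.14% of genes in HSCs and for 1.87% in GMPs. Dnaja1 was 105, 126, 108 and 170 CPM in O-WT HSCs and 94.1, 81.9, 77.1 and 78.6 CPM in O-NR HSCs, a log2 fold change of -0.62 (SE 0.14). Hspa8 was between 2003 and 2952 CPM in O-WT GMPs and between 1513 and 1953 CPM in O-NR GMPs, a log2 fold change of -0.51 (SE 0.11). Hspa4l in HSCs (-0.34, SE 0.11) and Dnajb1 (-0.33, SE 0.10) and Bag3 (-0.43, SE 0.12) in GMPs were the others below 0.01. Hsf1, the transcription factor that drives the response, had log2 fold changes of 0.09, 0.09 and -0.01 in HSCs, CLPs and GMPs. The inducible HSP70 genes Hspa1a and Hspa1b were too low to be tested in cohort 2.

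In HSCs of cohort 1, 19 heat shock genes were tested, and 15 were negative in O-NR against O-WT with a median of -0.06, and none had a p below 0.01, where 0.0358% of all genes did. Hsph1 had a log2 fold change of 0.08 (SE 0.34). In cohort 1 the other lists had no gene below 0.01 either, and all 17 related RNA-binding protein genes described below were negative in O-NR against O-WT, with a median of -0.22.

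The genes known to act on Cirbp or Rbm3 RNA did not pass a test with NR. The 21 listed genes comprised the factors Sp1, Sp3 and Creb1, the Trk receptor path, the CLK kinases that sense temperature, splicing factors and the decay machinery. None of the 21 had a p below 0.01 in HSCs, GMPs or CLPs, where 0.734%, 0.99% and 0.431% of all genes did. With shares so small, their absence is not a result about these 21 genes. Their median log2 fold changes were 0.02, -0.04 and 0.09. Sp1 changed by 0.07 (SE 0.11) in HSCs, -0.02 (SE 0.07) in GMPs and 0.26 (SE 0.21) in CLPs. Hnrnph1, which represses the poison exon of Rbm3, changed by 0.03 (SE 0.12), -0.08 (SE 0.07) and 0.35 (SE 0.25). For the kinases Clk1 and Clk4 the values were -0.16 and -0.02 in HSCs, -0.16 and -0.11 in GMPs, and -0.09 and 0.07 in CLPs. None of these passed a test, and a change in kinase activity or in splicing would not be seen in counts per gene.

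Among the circadian clock genes, Per1, a repressor of the clock that also responds to glucocorticoids, had the smallest p of any list gene in HSCs. It was 172, 92.5, 134 and 100 CPM in O-WT HSCs and 67.1, 66.5, 70.1 and 68.9 CPM in O-NR HSCs, with no overlap and almost no spread among treated libraries. The log2 fold change was -0.87 (SE 0.16, unadjusted p of 4.97e-05, adjusted p of 0.215 with edgeR). No gene of this comparison had an adjusted p below 0.05 with edgeR, while DESeq2 called 5 of 17307 genes, Per1 among them. In cohort 1 Per1 was 207 and 58.4 CPM in O-WT, 42.1, 41.1, 78.0 and 79.0 CPM in O-NR, and 232, 54.5 and 58.6 CPM in O-NR-RC. The O-WT and O-NR-RC libraries with the highest Per1 were also those with the highest Cirbp, and O-NR against O-WT gave -1.15 (SE 0.63, unadjusted p of 0.0905 with edgeR). Per2 changed by -0.24, -0.13 and -0.25 in HSCs, CLPs and GMPs of cohort 2 and Clock by -0.06, -0.03 and -0.15, none with a p below 0.01. Of 19 listed clock genes, 19 could be tested in HSCs and CLPs and 17 in GMPs. Per1 in HSCs was the only one below 0.01, where 0.734%, 0.431% and 0.99% of all genes were in HSCs, CLPs and GMPs. The time of day of the sorts is not given in the sources used here.

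RNAs that CIRBP or RBM3 are known to bind or to act on did not pass a test either. None of the 9 had a p below 0.01 in HSCs, GMPs or CLPs, where 0.734%, 0.99% and 0.431% of all genes did. That is not a result about these 9 genes. The medians were 0.05 in HSCs, 0.02 in GMPs and 0.18 in CLPs. Rtn3, whose translation RBM3 promotes in neurons, changed by 0.08, 0.02 and 0.20 in HSCs, GMPs and CLPs. Rpa2 and Txn1, both bound by CIRBP after ultraviolet stress, changed by 0.10 and 0.17 in HSCs, 0.10 and -0.06 in GMPs, and 0.12 and 0.26 in CLPs.

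The relatives of the 2 proteins, a list of 18 RNA-binding proteins such as those of the RBMX and HNRNPA/D kinds, were mostly on the positive side. In HSCs 13 of 17 tested were positive with a median of 0.10, in GMPs 12 of 17 with a median of 0.04, and in CLPs 15 of 17 with a median of 0.24. In GMPs 2 had a p below 0.01, 1 in each direction, where 0.238% of all genes did so on the higher side and 0.752% on the lower. In HSCs and CLPs none did, where 0.734% and 0.431% of all genes did. In GMPs, Hnrnpdl was on the higher side with NR (155, 167, 137 and 171 CPM in O-WT against 188, 184, 194 and 211 CPM in O-NR, log2 fold change 0.30, SE 0.08), and Tra2b on the lower (-0.25, SE 0.08), with adjusted p of 0.889 and 0.896 from edgeR. In GMPs all O-NR libraries lay above all O-WT libraries for Hnrnpdl. The same was so for Hnrnpdl in CLPs, as for 1.16% of genes there (97.8 to 166 CPM in O-WT and 175 to 245 CPM in O-NR, unadjusted p of 0.0104 with edgeR). Rbmx, which has the same arrangement of motif and tail regions, changed by 0.12, 0.10 and 0.26 in HSCs, GMPs and CLPs.

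**Figure D5:**
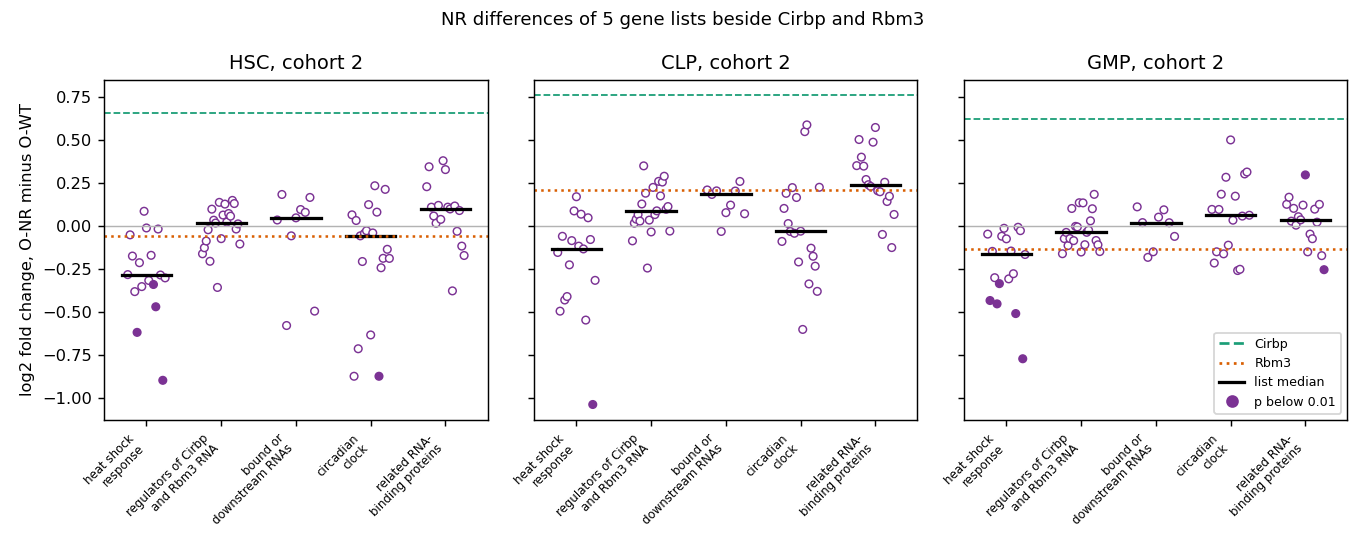
Log2 fold change, O-NR minus O-WT, of each tested gene of 5 lists in HSCs, CLPs and GMPs of cohort 2. Points are genes, filled where the unadjusted p was below 0.01, black lines are list medians, and the dashed and dotted lines mark Cirbp and Rbm3. The heat shock medians are the lowest of the 5 in each panel (-0.28, -0.13 and -0.165), and Cirbp lies above every listed gene, a place that its choice by these values sets in HSCs and GMPs.

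Between cell types, most relatives of Cirbp were lower in HSCs than in GMPs. Of 17 related genes tested in O-WT, 13 had an adjusted p below 0.05 on the lower side in HSCs against GMPs and 1 on the higher side, where 22% and 23.9% of all genes did. Heat shock genes, too, were lower in HSCs than in GMPs, with 11 of 18 called lower and none higher. Of the clock list, 11 of 19 were called higher in HSCs than in GMPs and 2 lower. Clock itself was higher in HSCs by 1.04 (SE 0.17, adjusted p of 4.33e-06) and Per1 by 1.87 (SE 0.23, adjusted p of 2.86e-08), both from edgeR. Of the regulators, 2 were called higher in HSCs and 8 lower among 21. Clk1 was among the higher (0.98, SE 0.22, adjusted p of 0.00042), and Hnrnph1 among the lower (-0.67, SE 0.24, adjusted p of 0.0213). Of the 9 RNAs bound or acted on, 2 were called higher and 6 lower, Rtn3 (-1.52, SE 0.19), Rpa2 (-1.89, SE 0.21) and Txn1 (-1.38, SE 0.20) among the latter.

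No neighbour of the 2 genes passed a test with NR in cohort 2. On either side of Cirbp, Midn, Atp5d, Cbarp, 1600002K03Rik and Ndufs7 passed the filter in cohort 2, and their log2 fold changes with NR lay between -0.42 and 0.13 in HSCs, between -0.38 and 0.11 in GMPs, and between -0.61 and 0.15 in CLPs. The gene that starts 158 bases beyond Cirbp's end, 1600002K03Rik, had -0.42 (SE 0.49) in HSCs. Around Rbm3 the values for Wdr13, Was, Suv39h1, Tbc1d25, Ebp and, in HSCs alone, Porcn lay between -0.34 and 0.34 in HSCs, between -0.17 and 0.08 in GMPs and between 0.03 and 0.23 in CLPs. The overlapping antisense gene Rbm3os changed by 0.44 (SE 0.33) in HSCs, 0.15 (SE 0.25) in GMPs and 0.23 (SE 0.43) in CLPs. None of these neighbours had a p below 0.05 in a cohort 2 comparison of NR with edgeR. Of all genes, 3.85%, 4.87% and 3.22% did in HSCs, GMPs and CLPs.

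The genes whose log2 levels were most like those of each member were named by Pearson r, as a description. Over the 24 libraries of cohort 2, where differences between cell types dominate, Cirbp was nearest to Rnf44 (r = 0.90), Rictor, Zer1, Zfp945 and Laptm4a among 30424 genes. Rbm3 was nearest to Nnt (r = 0.98), Slain2, Akr1a1, Tmem43 and Eftud2. Between Cirbp and Rbm3 the r was -0.05. After each of the 9 groups was centred on its mean, over 33 libraries, Cirbp was nearest to Ncstn (r = 0.95), Zfp945, Zfp362, Serinc3 and Pdk1, and Rbm3 to Vars (r = 0.98), Cdk9, Rnf216, Iqgap1 and Kif2a. The r between Cirbp and Rbm3 was then 0.92, at which Rbm3 ranked 166 for Cirbp and Cirbp 1777 for Rbm3 among 30424 genes. It was 0.70 (ranks 67 and 53) when libraries were scaled on genes over 20 CPM in all libraries. With that scaling the nearest genes included Serinc3, Zfp362, Ptp4a2 and Pnrc1 for Cirbp and were Vars, Cdk9, Srsf5, Plcg2 and Yy1 for Rbm3. Cirbp and Rbm3 thus rose and fell together among libraries of a group while they differed in opposite directions between HSCs and GMPs, and all of these libraries share the receptor relation given above.

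In libraries with the same treatment and replicate number, the deviations of Cirbp from its group mean correlated with an r of 0.37 between HSCs and CLPs, 0.26 between HSCs and GMPs and -0.14 between CLPs and GMPs over 8 pairs each. For Rbm3 the r was 0.13, -0.15 and 0.23. These are descriptions over points that share their treatment groups.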

How the data were processed

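Total RNA libraries from sorted HSCs, CLPs and GMPs were grouped by treatment and cohort from the sample labels. The authors trimmed reads with trim galore and cutadapt, used STAR for alignment to mm10, and obtained reads per Gencode M22 gene with featureCounts, and the deposited values are whole-number counts without normalization. Strand setting and handling of multi-mapping reads are not given in the sources used here. Gene positions came from Gencode M21.

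Counts were analysed in R 4.3.3 with edgeR 4.0.16: a gene was kept where the number of libraries with over 3 CPM reached the size of the smaller group, libraries were TMM-scaled, and groups were compared with the quasi-likelihood test and Benjamini-Hochberg adjustment over all genes tested (called at an adjusted p below 0.05, with the study's unadjusted 0.01 beside it). Each cell type of cohort 2, cohort 1, and each treatment across cell types were fitted separately. DESeq2 1.42.0 and other scalings, filters and left-out libraries were alternatives, and the fits were tested on simulated data. The r of likeness used log2 CPM with a prior count of 2.

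The members, lists and comparisons were chosen with earlier results of these data known. Named genes were both members, their nearest 3 tested genes per side, the 5 of highest likeness per measure, up to 3 list genes per comparison with the smallest p below 0.01, and a fixed set of regulators, clock and heat shock genes. No 2 libraries of a group were copies of the same counts: among 46 pairs the chi-square over its degrees of freedom was at least 1.96. Some libraries of cohort 1 were far more alike than others. In O-NR the value was 1.96 for replicates 1 and 2 and 3.84 for replicates 3 and 4, but 53.1 to 71.7 across these pairs. In O-NR-RC it was 4.02 for replicates 2 and 3, and 73.2 and 102 with replicate 1. Whether such libraries share mice or material is not given, and the tests counted each as independent. Whether matching replicate numbers mark the same mice is not given. Same-numbered pairs of O-WT HSCs and CLPs had an r across genes of 0.07 to 0.26 (mean 0.18, beside -0.06 for other pairs). Between O-WT HSCs and GMPs the r of such pairs was -0.35 to -0.02. Since not every same-numbered pair deviated together, libraries were not paired. A gene of highest likeness to Cirbp is not reported here.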

Additional observations from a re-analysis of the deposited data

Results flagged for a closer look

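Among the 21 groups of 4 libraries checked for a library far from the others, for Cirbp, Rbm3 and their ratio, 1 stood out: Rbm3 in O-WT HSC replicate 1 of cohort 2, at 133 CPM, while the other O-WT HSC libraries lay between 83.1 and 85.8 CPM. Its gap to the nearest library was 0.947 of the group's range. Chance gives such a flag in about 1 of 20 groups. The same library held the highest Cirbp (53.2 CPM) and the lowest receptor sum (1502 CPM) of the O-WT HSCs, and its ratio of 39.8 Cirbp counts per 100 Rbm3 counts was the highest of the 4 by a small margin.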

How the results depend on the processing

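Of 362 alternative values of Cirbp and Rbm3 in the tested comparisons, 325 kept their direction and their side of the threshold, 14 changed sign, 17 lost a call and 6 gained a call. Of 76 in the contrasts used for picking, 2 changed sign, both for Rbm3 in HSCs. In HSCs, CLPs and GMPs of cohort 2 Cirbp was higher with NR under every alternative run, with log2 fold changes from 0.53 to 0.94 in HSCs, 0.49 to 0.73 in GMPs and 0.57 to 1.10 in CLPs, and its adjusted p in CLPs ranged from 0.144 to 1. In HSCs and GMPs this direction of Cirbp restates its choice, since every alternative used libraries of the contrast for which it was picked. The cause of the other changes was not tested.

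With 1 library left out at a time, values in HSCs of cohort 1 ranged as follows: Cirbp O-NR against O-WT -1.15 to 0.11, O-NR-RC against O-NR -0.66 to 0.81 for Cirbp and -0.64 to 0.64 for Rbm3, O-NR-RC against O-WT -1.31 to 0.59 for Cirbp and -1.14 to 0.14 for Rbm3. In cohort 2, Rbm3 with NR ranged from -0.14 to 0.17 in HSCs, -0.24 to -0.06 in GMPs and 0.07 to 0.37 in CLPs. For HSCs against CLPs in O-WT the ranges were 0.57 to 1.20 for Cirbp and -0.38 to 0.0064 for Rbm3, for CLPs against GMPs -0.0086 to 0.57 for Cirbp in O-WT and 0.36 to 0.60 in O-NR, and for Rbm3 in HSCs against CLPs in O-NR -0.58 to -0.31.

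Filters and scaling moved the comparisons of cell types most. In O-WT, Rbm3 in HSCs against CLPs became 0.064 with filterByExpr, 0.043 with genes over 1 CPM and -0.52 (now called) with the receptor sum as covariate, where Cirbp fell to 0.42. Cirbp in CLPs against GMPs in O-WT became -0.041 without a CPM filter, and was called at 0.72 with upper quartile scaling, 0.77 with library totals, 0.82 with scaling on genes over 20 CPM and 1.33 with the covariate, where Rbm3 was -0.34. In O-NR, Rbm3 in HSCs against CLPs lost its call at -0.27 without a CPM filter, -0.29 with filterByExpr, -0.30 over 1 CPM and -0.37 with 1 model over the cohort. Cirbp in CLPs against GMPs lost it at 0.29, 0.27, 0.29 and 0.51 under these 4, and Rbm3 at -0.31 with the covariate. The covariate and the scaling on genes over 20 CPM were chosen after seeing the data. Since the receptor sums of CLPs and GMPs did not overlap, the covariate cannot be told apart from cell type between these cells.

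With the replicate number as a block, Cirbp in CLPs was 0.84 with NR (unadjusted p of 3.57e-05, adjusted p of 0.144) and 0.69 in HSCs and 0.62 in GMPs. The block changed no call of either gene.

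The number of genes with an unadjusted p below 0.01 ranged over the alternatives from 70 to 378 in HSCs (127 in the reported fit), 35 to 366 in GMPs (133) and 43 to 336 in CLPs (87) of cohort 2. In cohort 1 it ranged from 3 to 415 (11), 6 to 380 (8) and 3 to 420 (17), and for CLPs against GMPs from 3989 to 10511 in O-WT (9310) and 3942 to 8447 in O-NR (7292).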
